A study of Mus musculus with 6 samples.

Results

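The calcium signalling machinery of osteoclast precursors was followed through 10 genes, which are the IP3 receptors Itpr1, Itpr2 and Itpr3, the entry genes Orai1, Stim1 and Trpv2, the pumps Atp2b1 and Atp2a2, the calmodulin kinase Camk4 and the transcription factor gene Creb1. They were taken from the expression table by gene symbol, and all 10 were found among its 24940 genes. Precursors were bone marrow-derived macrophages (BMMs), which are mouse marrow cells grown with M-CSF, and RANKL is the cytokine that turns them into osteoclasts. All groups were kept in M-CSF (30 ng/mL) over 3 days. The -R group was given nothing else, the +R group also received RANKL at 100 ng/mL, and the R+LE group received RANKL at the same dose together with 10 μg/mL of LE, a leaf extract of the shrub Abeliophyllum distichum. The labels give C57BL/6 mice aged 6 to 8 weeks with no further genotype, whereas the methods of the paper name ICR mice. Each group had 2 libraries, and the labels do not say whether these came from separate animals or cultures. The p-values therefore set differences between groups against the spread between such libraries, which may be technical. RNA came from whole cultures, in which fused osteoclasts and remaining precursors were not separated.

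During osteoclast formation, phospholipase C makes the messenger IP3, which opens IP3 receptors in the membrane of the endoplasmic reticulum (ER) and releases stored calcium. STIM proteins sense the emptied store and open ORAI channels in the plasma membrane, while pumps return calcium to the ER or out of the cell, and the resulting oscillations are known to act through calmodulin on calcineurin and NFATc1. Calmodulin also activates CaMKIV, which phosphorylates CREB, and this branch is known to take part in osteoclast gene expression together with NFATc1.

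The regions just before the transcription start are shown for the 3 members with the largest falls after RANKL, Itpr3, Orai1 and Stim1, and for Creb1, the member that rose. Each line holds the 250 bases before the start of the RefSeq transcript on the GRCm38.p6 build, read 5′ to 3′ on the plus strand, which is the coding strand of all 4 genes. They lie at chr17:27057054-27057303 for Itpr3, chr5:123014824-123015073 for Orai1, chr7:102267569-102267818 for Stim1 and chr1:64532554-64532803 for Creb1. Capitals mark the CREB half-site TGACG, or its reverse complement, in Orai1 and Stim1, and the NFAT core GGAAA, or its reverse complement, in Creb1.
Itpr3: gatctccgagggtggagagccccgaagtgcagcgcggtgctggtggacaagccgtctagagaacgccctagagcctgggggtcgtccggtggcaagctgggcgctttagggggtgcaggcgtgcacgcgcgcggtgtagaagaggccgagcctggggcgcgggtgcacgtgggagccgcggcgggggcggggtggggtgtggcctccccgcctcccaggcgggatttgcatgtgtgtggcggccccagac
Orai1: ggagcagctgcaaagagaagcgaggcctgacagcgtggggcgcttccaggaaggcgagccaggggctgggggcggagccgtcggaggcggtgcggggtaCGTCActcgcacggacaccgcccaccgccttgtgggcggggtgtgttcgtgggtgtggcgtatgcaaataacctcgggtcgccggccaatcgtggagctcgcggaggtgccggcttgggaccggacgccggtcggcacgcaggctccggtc
Stim1: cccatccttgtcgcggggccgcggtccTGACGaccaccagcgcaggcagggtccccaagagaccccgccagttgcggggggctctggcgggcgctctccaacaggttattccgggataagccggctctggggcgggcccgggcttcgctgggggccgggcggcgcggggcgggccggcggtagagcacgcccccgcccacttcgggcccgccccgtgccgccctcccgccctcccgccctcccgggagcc
Creb1: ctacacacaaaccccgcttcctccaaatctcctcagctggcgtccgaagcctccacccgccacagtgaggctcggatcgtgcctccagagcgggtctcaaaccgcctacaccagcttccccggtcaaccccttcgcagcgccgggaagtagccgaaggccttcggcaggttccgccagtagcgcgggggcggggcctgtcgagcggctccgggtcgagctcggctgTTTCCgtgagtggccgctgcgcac
Of the 10 members, 7 matched the RefSeq promoter table, and Itpr1, Atp2a2 and Camk4 are named only. The 4 sequences were rich in G and C, at 72% in Itpr3, 70.8% in Orai1, 78.4% in Stim1 and 67.6% in Creb1, against a mean of 53.2% over 32851 windows of the same length. Both strands were searched for 4 motifs, of which the half-site TGACG also lies inside the full CREB site TGACGTCA. The full site was in 1.55% of all windows and in no member's window. The half-site was in 17.8% of all windows, and among the members' windows it was found once in Orai1, 146 bases before the start, and once in Stim1, 218 bases before it. The NFAT core was in 55.6% of all windows, and in Creb1 it lay 19 bases before the start. Single copies also lay in 1 of the windows of Atp2b1 and in 1 of those of Trpv2. The AP-1 site TGANTCA, held by 6.75% of all windows, was in none of the members' windows. The window of Itpr3 held none of these letters. These matches describe the sequence and were not tested for binding.

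Depth was similar across the 6 libraries, with 29390248 to 34846319 mapped reads as recovered from the steps between low values. RPKM divides reads by transcript length and by the mapped reads of the library, so levels can be compared between genes. The ribosomal RNA gene Rn45s took 4.97% to 6.83% of gene reads for -R, 10.9% to 11.1% for +R and 11.2% to 13.5% for R+LE. All 8 osteoclast markers passed the test as higher after RANKL and again as lower when LE was added, and their summed RPKM ran from 43.2 to 44.8 for -R, from 1866 to 2123 for +R and from 329.2 to 380.0 for R+LE. Of the 7 macrophage markers in the table, 6 were lower after RANKL, and 2 were higher and 0 lower with LE. Their sum, most of which was Lyz2, ran from 6664 to 7250 for -R, from 2690 to 3454 for +R and from 3762 to 4204 for R+LE. Summed megakaryocyte and platelet markers, which hold the macrophage-expressed Pf4, ran from 120.2 to 124.3, from 6.43 to 9.12 and from 13.2 to 18.5, and neutrophil markers from 15.5 to 17.2, from 0.716 to 0.816 and from 0.537 to 2.53 in the same order. The part of these shifts in the members' values was not tested.

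To ask how RANKL and LE changed these genes, log2(RPKM + 0.5) was compared between groups with limma, a linear model fitted to all 11595 genes that averaged 0.5 RPKM or more, with Benjamini-Hochberg adjustment. A gene passed at an adjusted p below 0.05. Fold changes are on that log2 scale, which understates the change of low genes. After RANKL, 5 of the 9 members tested passed. Itpr3, Orai1, Stim1 and Trpv2 were lower in +R than in -R, and Creb1 was higher. Among all genes 45.4% passed, with 23.9% higher and 21.5% lower, so the members' share was near the background. On that scale only Itpr3 also passed a fold of 2, as 15.5% of all genes did (6.58% upward and 8.92% downward). When LE was added to RANKL, 0 of the 9 members passed by limma, beside 12.0% of all genes (5.19% higher and 6.86% lower). Of the members, 2 had an unadjusted p below 0.05 (Itpr3 and Orai1). By voom on the recovered reads 1 member (Itpr3) passed, beside 1766 of all 11595 genes. No member passed a fold of 2 in that comparison, as 3.23% of all genes did (1.46% higher and 1.78% lower). Between R+LE and -R, the same 5 members passed in the same direction, against 34.3% of all genes, of which 15.3% were higher and 19.0% lower. Itpr3 was again the member past a fold of 2, as 10.3% of all genes were (3.92% higher and 6.36% lower). The comparisons share libraries, so their values stand side by side and are not independent. The median log2 fold change of the tested members was -0.35 for +R against -R, 0.07 for R+LE against +R and -0.28 for R+LE against -R, beside 0.05, -0.05 and -0.01 over all genes.

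**Figure D1:**
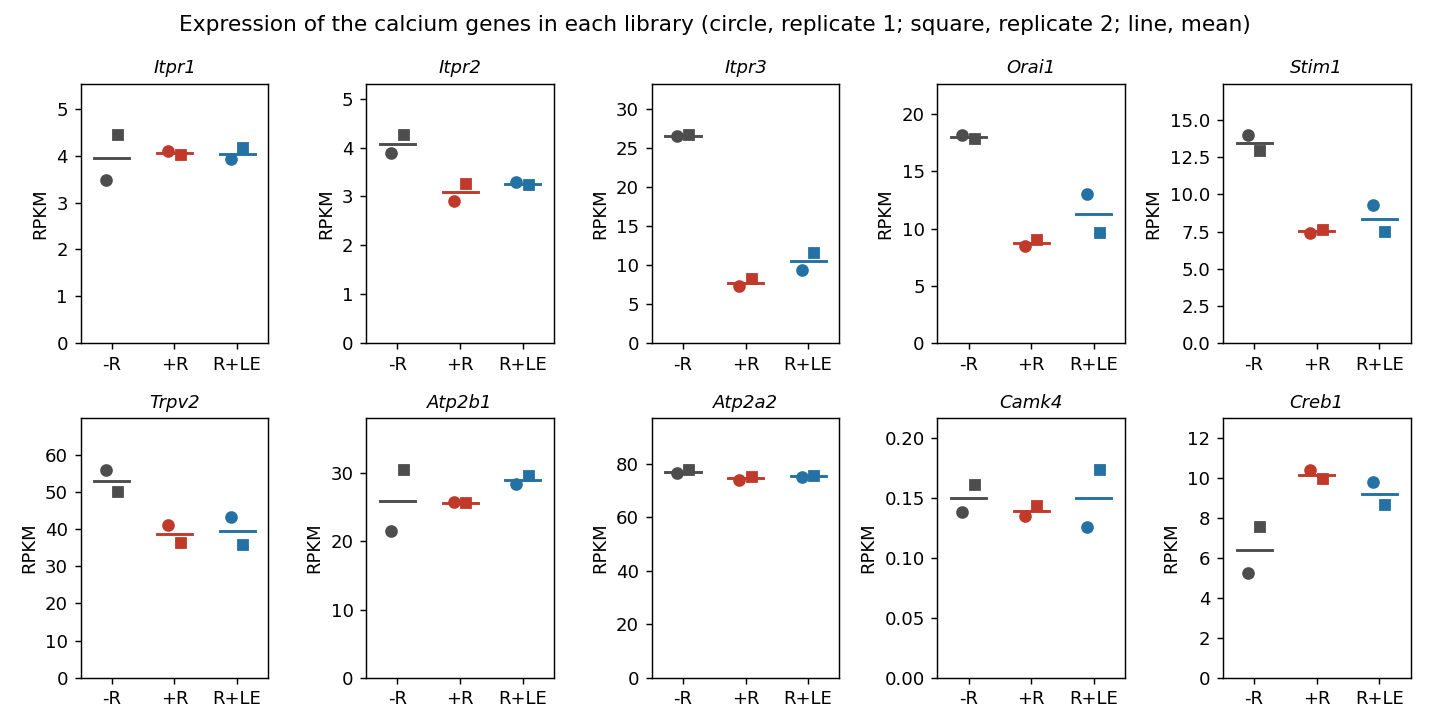
RPKM of the 10 members in each library, with 1 panel a gene, groups on the x axis, circles for replicate 1, squares for replicate 2 and a line for the group mean. Itpr3 stood at 26.5 and 26.6 in -R against 7.24 and 8.20 in +R, whereas Atp2a2 stayed between 74.1 and 77.6 in all 6 libraries.

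Atp2a2, the ER pump that refills the store, had the highest level of the members in every group, followed by Trpv2, a cation channel of the plasma membrane. Camk4 had the lowest level in every group. In -R, Itpr3 and the plasma membrane pump Atp2b1 came next with overlapping values, followed by Orai1, Stim1, Creb1, and then Itpr2 and Itpr1, which overlapped. In +R, Atp2b1 took the third place, and Creb1 stood above Orai1, which stood above Itpr3 and Stim1. The last pair overlapped. In R+LE, neighbours in the run from Orai1 through Itpr3 and Creb1 to Stim1 overlapped and could not be put in order. Itpr1 stood above Itpr2 in both groups with RANKL.

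Itpr3, the IP3 receptor subtype with the highest level in these cells, fell most. The gene lies on the plus strand at chr17:27057304-27122223 (mm10) and has 58 exons. Its RPKM was 26.5 and 26.6 for -R, 7.24 and 8.20 for +R, and 9.38 and 11.5 for R+LE. No 2 groups overlapped, and the R+LE values lay between those of the other groups. Itpr3 was 3.30-fold lower in +R than in -R, with a log2 fold change of -1.72 (SE 0.14) and an adjusted p of 1.34e-07 by limma with Benjamini-Hochberg adjustment. It was also 2.48-fold lower in R+LE than in -R (log2 fold change -1.31), at an adjusted p of 4.39e-06. Both calls held under all 18 settings tried, with log2 fold changes from -1.80 to -1.64 and from -1.45 to -1.17. With LE added to RANKL, its mean RPKM was 10.5 ± 1.52 (SD, n = 2) against 7.72 ± 0.68, a log2 difference of 0.41 with a 95% interval from 0.10 to 0.72 that did not pass (limma adjusted p = 0.0853). That difference passed under voom (log2 fold change 0.43, adjusted p = 0.0332), with the replicate number as a block (0.0454) and without R+LE replicate 1 (0.55, adjusted p = 0.0265). It was 0.27 without R+LE replicate 2 (adjusted p = 0.367) and 0.33 without +R replicate 1 (0.446), and voom without a filter did not pass (0.0900). A share of the exon bases, 234 in all, overlaps Itpr3os on the other strand and the microRNA gene Mir7677, and the counting ignored strand. Exons of Itpr1, Atp2a2, Camk4 and Orai1 also overlap other genes, over 289, 83, 72 and 7 bases. These overlaps are those of the matched GENCODE transcripts. For Camk4 that transcript has 2717 exon bases against 12318 counted, so most of its counted bases were not searched. In these bulk cultures, fewer cells with a transcript and less transcript per cell cannot be told apart, here and for all members.

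Itpr2, a subtype with high affinity for IP3, lies on the minus strand at chr6:146108299-146502223 and has 56 exons. Its RPKM was 3.89 and 4.25 for -R, 2.91 and 3.25 for +R, and 3.29 and 3.23 for R+LE. Both -R values lay above those of the other groups, which overlapped each other. The difference between +R and -R was -0.35 on the log2 scale with an adjusted p of 0.0640 by limma, and it passed under quantile normalization (0.0474) and voom (-0.40, 0.0209). The difference was 0.07 (interval -0.24 to 0.39) between R+LE and +R, and -0.28 (-0.59 to 0.04) between R+LE and -R, neither of which passed.

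Itpr1, the subtype best known from neurons, lies on the plus strand at chr6:108213096-108551116 and has 62 exons. Its RPKM was 3.48 and 4.44 for -R, 4.11 and 4.03 for +R, and 3.93 and 4.17 for R+LE. The groups overlapped, and both -R libraries lay outside the range of the other 4. The log2 difference was 0.04 (-0.28 to 0.37) for +R against -R, -0.0057 (-0.33 to 0.32) for R+LE against +R and 0.04 (-0.29 to 0.36) for R+LE against -R. None of the 3 passed, with adjusted p from 0.840 to 0.991 by limma, and the sign of each turned when 1 of the libraries was left out.

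The makeup of the IP3 receptor transcripts differed between groups. The share of Itpr3 in the summed RPKM of the 3 subtypes, which does not depend on library scaling, was 78.2% and 75.4% for -R, 50.8% and 53.0% for +R, and 56.5% and 60.9% for R+LE. The groups did not overlap, with -R highest and R+LE in between. Exact two-sided permutation tests gave p = 0.333 for each pair of groups, the smallest that 2 against 2 libraries allow. Itpr1 held 11.4% ± 1.63 (SD, n = 2) for -R, 27.4% ± 1.96 for +R and 22.9% ± 1.17 for R+LE. Itpr2 held 11.8% ± 0.379, 20.7% ± 0.412 and 18.5% ± 1.96 in the same order. The summed RPKM of the 3 subtypes was 34.6 ± 1.0 for -R, 14.9 ± 0.865 for +R and 17.8 ± 1.65 for R+LE, so that Itpr3 accounted for most of the difference in the sum. Among the genes of other ER and lysosomal release channels, 5 of 9 were tested, and 3 were lower and 0 higher in +R than in -R, with 0 passing either way for R+LE against +R. Tpcn2, a lysosomal cation channel, had a mean RPKM of 20.3 for -R, 6.00 for +R and 6.61 for R+LE, with a log2 fold change of -1.68 after RANKL and 0.12 (adjusted p = 0.757) with LE. Mcoln2, of the mucolipin channel family, had 3.44, 1.198 and 1.44 RPKM, with log2 fold changes of -1.22 and 0.20 (adjusted p = 0.576). The ryanodine receptor genes Ryr1, Ryr2 and Ryr3, which form the other class of ER release channel, were all under the filter.

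**Figure D2:**
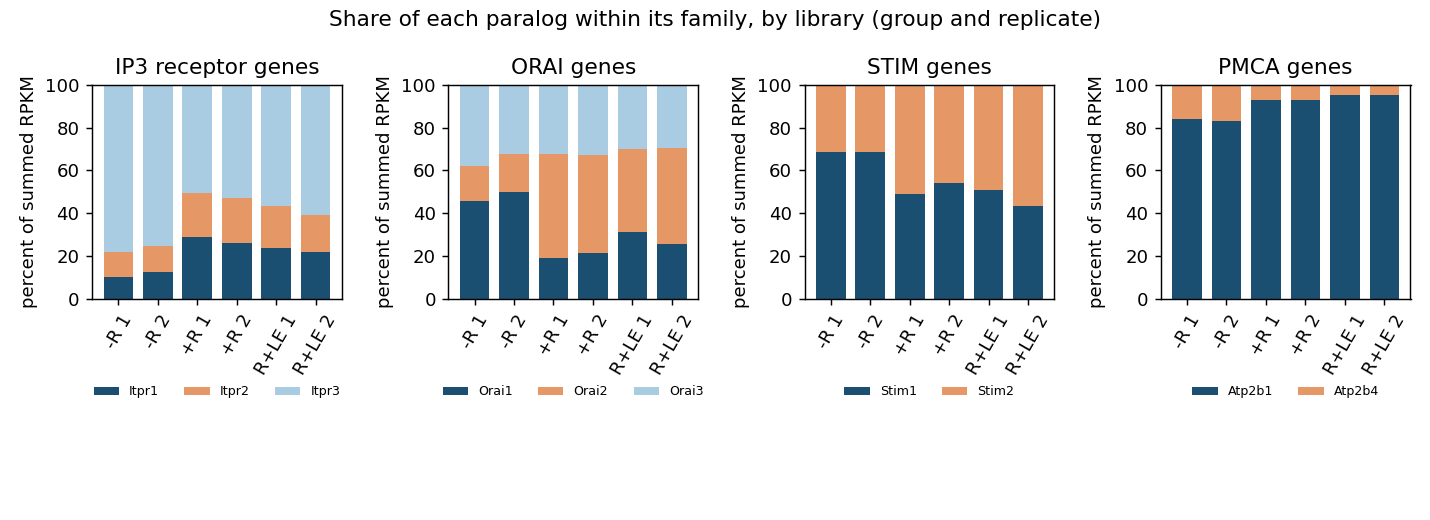
Share of each paralog in the summed RPKM of its family, in percent, in each of the 6 libraries. Itpr3 took 76.8% of the IP3 receptor sum for -R, 51.9% for +R and 58.7% for R+LE, and Orai2 took 17.1%, 47.4% and 41.9% of the ORAI sum. In the PMCA panel, Atp2b2 and Atp2b3 are left out because they held at most 0.0684% in any library.

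The 3 members of calcium entry, Orai1, Stim1 and Trpv2, each fell after RANKL, whereas not all of their paralogs did. Orai1, the pore of the store-operated channel, lies on the plus strand at chr5:123015074-123030452 and has 2 exons. Its RPKM was 18.1 and 17.8 for -R, 8.51 and 9.04 for +R, and 13.0 and 9.57 for R+LE. No 2 groups overlapped, and the R+LE libraries lay apart from each other. Orai1 was 1.99-fold lower in +R than in -R (log2 fold change -0.99, SE 0.15, adjusted p = 8.05e-05 by limma), just short of a fold of 2. Whether Orai1 passed that fold depended on the setting. The log2 fold change was -1.03 with 0.1 added to RPKM in place of 0.5, -1.03 by voom and -0.96 with 1 added. It was 1.58-fold lower in R+LE than in -R (-0.66, adjusted p = 0.00353). Against +R, R+LE was higher by 0.33 on the log2 scale with an interval from 0.0049 to 0.66, and did not pass (adjusted p = 0.205). Without R+LE replicate 2, that difference was 0.55 with an adjusted p of 0.0313, and it passed in none of the other settings. Without R+LE replicate 1 it was 0.12 (adjusted p = 0.663), so the size of the difference depended on which R+LE library was kept.

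Stim1, the calcium sensor of the ER that opens Orai1, lies on the plus strand at chr7:102267824-102436855 and has 12 exons. Its RPKM was 14.0 and 12.9 for -R, 7.43 and 7.59 for +R, and 9.27 and 7.49 for R+LE. Both -R libraries were above all others, and R+LE overlapped +R. Stim1 was 1.74-fold lower in +R than in -R (log2 fold change -0.80, SE 0.14, adjusted p = 0.000319 by limma) and 1.58-fold lower in R+LE than in -R (-0.66, adjusted p = 0.00227). The difference between R+LE and +R was 0.14 with an interval from -0.16 to 0.45 (adjusted p = 0.649), and it was -0.0035 without R+LE replicate 1.

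Trpv2, a cation channel of the TRP family found in macrophages, lies on the plus strand at chr11:62574486-62600305 and has 16 exons. Its RPKM was 55.9 and 50.0 for -R, 41.1 and 36.2 for +R, and 43.3 and 35.6 for R+LE. Both -R libraries were above the other 4, among which the groups overlapped. Trpv2 was 1.37-fold lower in +R than in -R (log2 fold change -0.45, SE 0.15, adjusted p = 0.0244 by limma) and 1.34-fold lower in R+LE than in -R (-0.42, adjusted p = 0.0422). These were the weakest of the calls. The adjusted p for +R against -R was 0.195 without -R replicate 1, 0.0684 without -R replicate 2, 0.190 without +R replicate 2 and 0.0592 without a filter on low values. For R+LE against -R, 9 of 18 settings passed, with log2 fold changes from -0.56 to -0.28. With both compared groups whole, the limma call was lost with Rn45s left out of the depth (adjusted p = 0.0824) and without a filter (0.0912). It was also lost without the variance trend (0.0592) and in a fit of only the compared groups (0.0512). The other settings that did not pass left out 1 library, which was -R replicate 1 or 2, +R replicate 1 or 2, or R+LE replicate 2. The difference between R+LE and +R was 0.03 (-0.30 to 0.35), with an adjusted p of 0.953.

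Among paralogs, Orai2 moved the other way from Orai1. Its RPKM was 6.52 and 6.38 for -R, 22.0 and 19.5 for +R, and 16.5 and 16.6 for R+LE, and no 2 groups overlapped. Orai2 was 3.05-fold higher in +R than in -R (log2 fold change 1.61, adjusted p = 1.31e-07 by limma), and the difference between R+LE and +R was -0.32 (adjusted p = 0.163). Orai1 held 45.5% and 49.7% of the summed ORAI RPKM for -R, 18.9% and 21.3% for +R, and 31.0% and 25.8% for R+LE. Orai2 held 17.1% ± 1.03 (SD, n = 2), 47.4% ± 2.09 and 41.9% ± 3.83. The ORAI sum itself was 37.9 ± 2.86 for -R, 43.7 ± 1.74 for +R and 39.6 ± 3.49 RPKM for R+LE. Stim1 likewise held 68.7% of the STIM sum in both -R libraries, 49.2% and 54.1% for +R, and 50.8% and 43.5% for R+LE, with Stim2 as the rest. Exact permutation tests of shares whose groups did not overlap again gave p = 0.333. Of the 7 other store-operated entry genes, 6 were tested. Orai2 was higher and 1 gene was lower in +R than in -R, and 0 passed for R+LE against +R.

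Among the genes listed as other entry channels of the plasma membrane, those that passed were lower after RANKL or higher with LE. Of 22 such genes 10 were tested, 8 were lower and 0 higher in +R than in -R, and 2 were higher and 0 lower in R+LE than in +R. Among all genes, 21.5% were lower and 23.9% higher after RANKL, and 5.19% were higher and 6.86% lower with LE. The list's median log2 fold change after RANKL was -0.92, beside 0.05 over all genes. Trpv4, a TRP channel with a known role in osteoclasts, had a mean RPKM of 5.40 for -R, 0.644 for +R and 1.76 for R+LE. Its log2 fold change was -2.37 after RANKL (adjusted p = 6.54e-08 by limma) and 1.0 with LE (adjusted p = 0.00212). P2rx4, an ATP-gated channel, had 13.3, 4.63 and 6.96 RPKM, and also passed both ways (-1.44 and 0.54, adjusted p = 0.0416 for the latter). Trpm4, a cation channel opened by calcium, and Cacna1a, a pore subunit of voltage-gated channels, fell after RANKL by 1.20 and 1.14 on the log2 scale. With LE their differences of 0.44 (adjusted p = 0.151 by limma) and 0.40 (adjusted p = 0.330) did not pass. Trpm4 conducts monovalent cations, so the count of 8 lower is not of calcium entry paths alone.

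**Figure D3:**
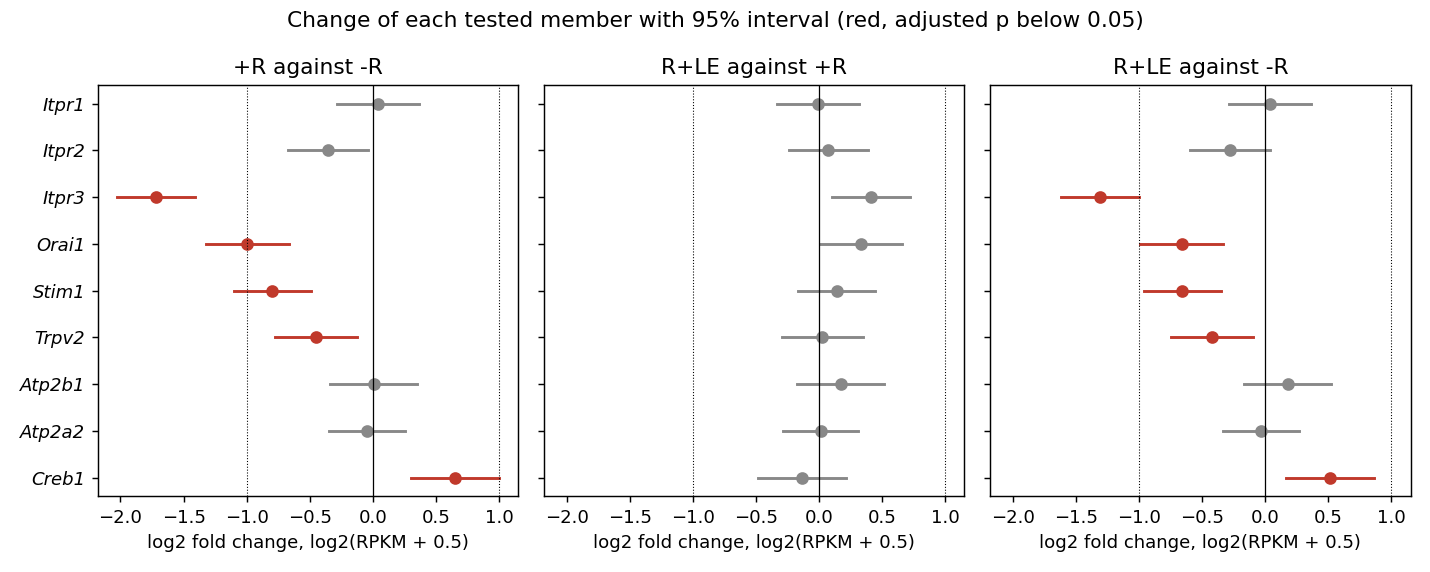
Log2 fold change of each of the 9 tested members in the 3 comparisons, on the log2(RPKM + 0.5) scale, with the 95% interval as a bar and red for an adjusted p below 0.05. Itpr3 lay farthest from 0 at -1.72 for +R against -R and -1.31 for R+LE against -R, and all points for R+LE against +R are grey.

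Neither pump passed the test in any comparison. Atp2a2, which encodes SERCA2 and returns calcium to the ER, lies on the minus strand at chr5:122456324-122502225 and has 20 exons. Its RPKM was 76.5 and 77.6 for -R, 74.1 and 75.2 for +R, and 75.1 and 75.6 for R+LE. The whole range was narrow, with -R just above the other groups. The log2 difference was -0.045 (-0.34 to 0.26) for +R against -R, 0.012 (-0.29 to 0.31) for R+LE against +R and -0.032 (-0.33 to 0.27) for R+LE against -R, with adjusted p from 0.818 to 0.977 by limma. The sign of the first turned with Rn45s left out of the depth, and that of the last turned under 3 scalings. Atp2a2 held 91.2% to 94.3% of the summed SERCA RPKM in all libraries.

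Atp2b1, which encodes PMCA1 and drives calcium out of the cell, lies on the plus strand at chr10:98915152-99026143 and has 21 exons. Its RPKM was 21.5 and 30.5 for -R, 25.8 and 25.6 for +R, and 28.4 and 29.7 for R+LE. The -R libraries enclosed all the others, and +R lay below R+LE. The log2 difference was 0.0056 (-0.34 to 0.35) for +R against -R, 0.17 (-0.17 to 0.52) for R+LE against +R and 0.18 (-0.17 to 0.52) for R+LE against -R, and none passed. Without -R replicate 1, the first and the last were -0.24 and -0.068. Atp2b1 held 83.7% ± 0.612 (SD, n = 2) of the PMCA sum for -R, 93.1% ± 0.126 for +R and 95.2% ± 0.02 for R+LE, with nearly all the rest in Atp2b4. Atp2b4, a pump of the same family, had a mean RPKM of 5.07, 1.90 and 1.46 in -R, +R and R+LE, with a log2 fold change of -1.19 after RANKL and -0.29 (adjusted p = 0.399) with LE.

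Some of the other pumps and exchangers passed. Of the 14 gene symbols listed, 13 were in the table and 6 were tested, with 1 higher and 3 lower in +R than in -R, and 3 higher and 0 lower in R+LE than in +R. Slc8a1, a sodium-calcium exchanger of the plasma membrane, had a mean RPKM of 4.38 for -R, 1.04 for +R and 2.43 for R+LE. Its log2 fold change was -1.66 after RANKL (adjusted p = 1.11e-06 by limma) and 0.92 with LE (adjusted p = 0.00178). Slc8b1, its mitochondrial relative, had 21.1, 6.94 and 12.8 RPKM, with log2 fold changes of -1.54 (adjusted p = 1.76e-07) and 0.84 (adjusted p = 0.00054).

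Creb1, the target of the calmodulin kinase branch, was the member that rose after RANKL. It lies on the plus strand at chr1:64532804-64604548 and has 8 exons. Its RPKM was 5.23 and 7.53 for -R, 10.4 and 9.94 for +R, and 9.795 and 8.625 for R+LE. All 3 groups were apart, with +R highest, and the -R libraries differed from each other more than those of +R or R+LE. Creb1 was 1.57-fold higher in +R than in -R (log2 fold change 0.65, SE 0.16, adjusted p = 0.00415 by limma) and 1.43-fold higher in R+LE than in -R (0.51, adjusted p = 0.0234). Both calls were lost without -R replicate 1, with log2 fold changes of 0.41 (adjusted p = 0.0921) and 0.27 (adjusted p = 0.298). The second was also lost without R+LE replicate 1 (0.43, adjusted p = 0.108) and without a filter (0.120). The difference between R+LE and +R was -0.14 with an interval from -0.48 to 0.21 (adjusted p = 0.706).

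Camk4, which encodes the kinase CaMKIV and is best known from neurons and T cells, had the lowest level of the members. It lies on the plus strand of chromosome 18. Its RPKM was 0.138 and 0.161 for -R, 0.135 and 0.143 for +R, and 0.126 and 0.173 for R+LE. These values rest on 50, 69, 51, 54, 49 and 65 reads in the same order, and all groups overlapped. The exact 95% Poisson interval of the lowest, 36.3 to 64.8 reads, covers counting error only and overlaps that of the highest, 53.7 to 87.3 reads. Camk4 was under the filter on low values, so that voom was run on the recovered reads of all genes with any reads, a choice made after the values were seen. The log2 difference was -0.11 (-0.82 to 0.60) for +R against -R, 0.09 (-0.63 to 0.81) for R+LE against +R and -0.02 (-0.72 to 0.68) for R+LE against -R, and none passed. The table counts Camk4 over 12318 bases, against 2717 bases of exon in the matched GENCODE transcript, and RPKM depends on that length. T cell markers, of which 6 of 7 were in the table, summed to at most 0.927 RPKM in any library. Cd3e was listed at 0 in all 6 libraries, whereas Lck had 3 to 12 reads in a library. Cd4 stood at 0.587 and 0.644 RPKM in -R. Which cells the Camk4 reads came from was not tested.

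**Figure D4:**
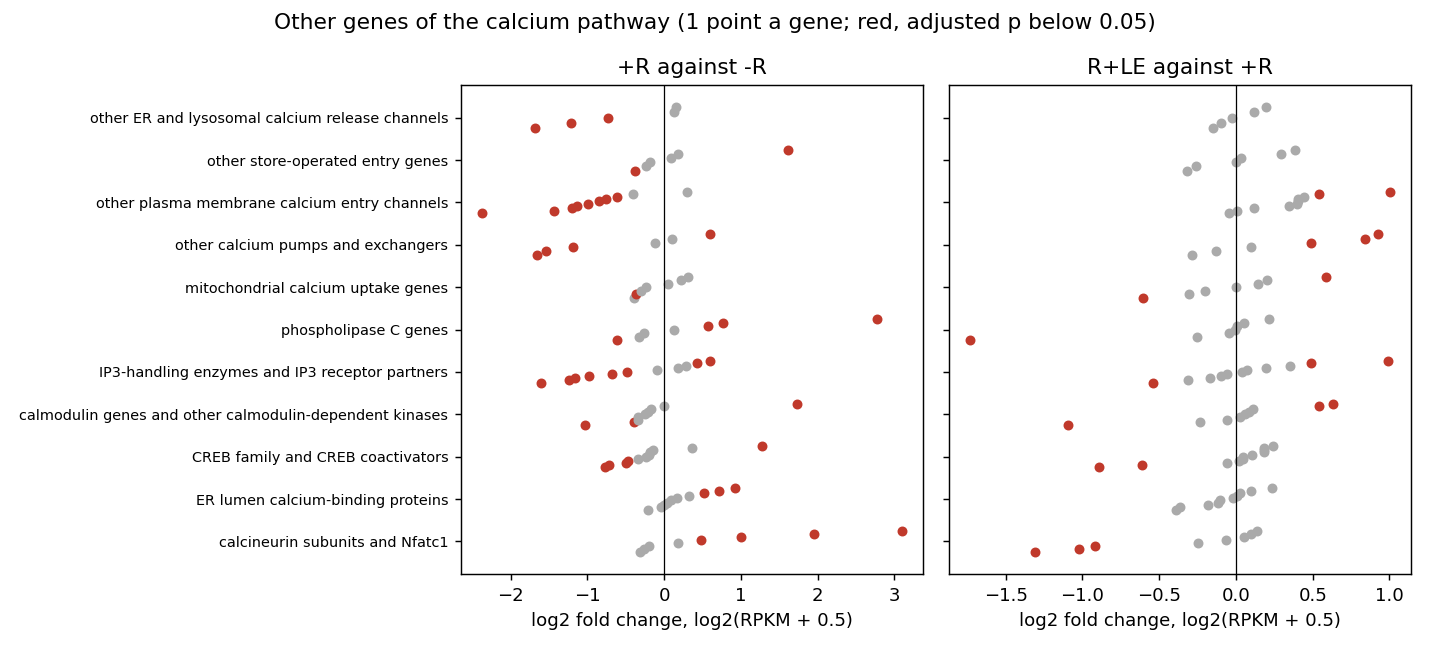
Log2 fold change of the other calcium pathway genes that were tested, by list, for +R against -R (left) and R+LE against +R (right), on the log2(RPKM + 0.5) scale, with 1 point a gene and red for an adjusted p below 0.05. The largest values were those of Nfatc1 at 3.10 after RANKL and Plcb4 at -1.73 with LE.

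The genes upstream and downstream of the members were described by the same lists. In all, 130 of the 132 gene symbols on the pathway lists were in the table, and 90 genes were tested. Of these, 16 were higher and 29 lower after RANKL, 10 were higher and 9 lower with LE, and 11 stood higher and 23 lower in R+LE than in -R. The shares of all genes were 23.9% and 21.5%, 5.19% and 6.86%, and 15.3% and 19.0% in the same order, and the counts of the single lists are read beside them. For RANKL, 16 and 29 of 90 together are near the 45.4% of all genes that passed, but more were lower than higher, unlike among all genes. With LE, 10 and 9 of 90 each lie above the share of all genes. These differences were not tested, and the lists were chosen with earlier results known. Of the 11 genes on the phospholipase C list 7 were tested, with 3 higher and 1 lower after RANKL and 0 higher and 1 lower with LE. The list includes the phospholipase C-like genes Plcl1 and Plcl2, so its counts are not all of enzymes that make IP3. The gene that was lower with LE was Plcb4, with a mean RPKM of 0.325 for -R, 5.11 for +R and 1.18 for R+LE. Its log2 fold change was 2.77 after RANKL (adjusted p = 1.71e-08 by limma) and -1.73 with LE (adjusted p = 2.30e-05). Plcg2, which had the highest level on that list, went the other way. Its mean RPKM was 50.3 for -R, 32.7 for +R and 38.1 for R+LE, and it did not pass with LE.

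Among the enzymes that use up IP3 and the partners of its receptors, 11 of 13 were tested, with 2 higher and 6 lower after RANKL and 2 higher and 1 lower with LE. Itpkb, which phosphorylates IP3, had 17.1, 5.30 and 6.12 RPKM in -R, +R and R+LE, with log2 fold changes of -1.60 after RANKL and 0.20 (adjusted p = 0.489) with LE. Inpp1, a phosphatase that acts further down on inositol phosphates, had 4.52, 1.63 and 3.71 RPKM and passed both ways (-1.24 and 0.99). Homer3, a scaffold that binds IP3 receptors, had 26.7, 11.6 and 16.6 RPKM and also passed both ways (-1.16 and 0.49).

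The 14 calmodulin genes and other kinases of that branch included 9 tested genes, with 1 higher and 2 lower after RANKL and 2 higher and 1 lower with LE. Camk1 had 56.6, 27.3 and 28.7 RPKM in -R, +R and R+LE, far above Camk4, and fell by 1.04 on the log2 scale after RANKL. Camk2a was low, at 0.0645, 1.38 and 0.382 RPKM, and passed as higher after RANKL (1.74) and lower with LE (-1.09). It came over the filter of 0.5 RPKM only through its +R libraries, so these 2 calls are not independent of the filter. Of the 12 CREB family and coactivator genes 11 were tested, with 1 higher and 4 lower after RANKL, and 0 higher and 2 lower with LE. The 1 that was higher was Creb3l2, a membrane-anchored relative of Creb1, with 2.20, 6.01 and 3.75 RPKM and log2 fold changes of 1.27 and -0.61.

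Nfatc1, the osteoclast transcription factor on which calcium signals converge, had a mean RPKM of 5.61 ± 0.0156 (SD, n = 2) for -R, 51.8 ± 0.907 for +R and 20.6 ± 0.0757 for R+LE. It rose by 3.10 on the log2 scale after RANKL (adjusted p = 7.94e-11 by limma) and fell by 1.31 with LE (adjusted p = 9.43e-06). Of the 8 tested genes in the list of calcineurin subunits, their regulators and Nfatc1, 4 were higher and 0 lower after RANKL, and 0 were higher and 3 lower with LE. The regulator Rcan1 had 9.44, 19.6 and 9.335 RPKM in -R, +R and R+LE, with log2 fold changes of 1.002 and -1.02. Rcan2, a low gene of the same family, had 0.0575, 1.70 and 0.640 RPKM, with log2 fold changes of 1.95 and -0.92. Without its +R libraries Rcan2 would average under the filter of 0.5 RPKM, so these changes are not independent of the filter.

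Values that did not overlap between groups were common. For +R against -R they were seen in 7 of the 9 tested members, beside 75.2% of all genes tested. For R+LE against +R the count was 4 of 9, which were Itpr3, Orai1, Atp2b1 and Creb1, beside 49.0% of all genes. Between R+LE and -R it was 7 of 9 beside 65.5%.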

How the data were processed

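RNA-seq libraries, 6 in all with 2 for each of 3 conditions, were sequenced as paired ends of 100 bp. The paper names TopHat for alignment to mm10, whereas the submitters' processing notes name HISAT2, HOMER and DESeq2, with versions not given in the sources used here. Per the file headers, the authors used HOMER to count reads on exons of 1 transcript a gene, without regard to strand, and deposited the values as RPKM, under column titles that say FPKM. Spreadsheet dates had replaced 26 gene symbols, none of a member, and all 26 were restored.

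limma 3.58.1 (R 4.3.3) was fitted to log2(RPKM + 0.5) of all 6 libraries, with a variance trend, over genes that averaged 0.5 RPKM or more. At least 99.988% of the values checked lay on whole-read steps, which gave the reads used with voom. Replicates differed by more than sampling noise (chi-square per gene from 12.5 to 28.0). Exon counts and overlaps came from GENCODE vM21. The scripts were tested on simulated data and used Python 3.11.15, pandas 2.3.3, scipy 1.17.1 and matplotlib 3.10.9. Alternatives changed the pseudocount (0.1 or 1), filter, variance trend, samples, scaling, block or test, or left out 1 library.

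Named were all members, Nfatc1, and in each pathway list at most 4 genes with the largest change among those past an adjusted p of 0.05 and a fold of 2. Other genes, and the family shares other than those of the IP3 receptors, were chosen after their values were seen. Members and lists were chosen with earlier results of these data known. Some results are not reported here.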

Additional observations from a re-analysis of the deposited data

How the results depend on the processing

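The count of members that passed for +R against -R was 4 without a filter on low values, beside 4925 of 18427 genes. For R+LE against -R it was 3 without that filter, beside 3201 of 18427 genes. For R+LE against +R it was 0 by limma as reported and 1 by voom, beside 1766 of 11595 genes. By voom without a filter it was 0, beside 1423 of 18427 genes. A fit with 1 library left out can keep 1 library in a group, so its counts are not given. Calls that changed there are described with Itpr3, Orai1, Trpv2 and Creb1. Itpr3's share of the IP3 receptor sum ran from 75.4% to 78.2% in -R, 50.8% to 53.0% in +R and 56.5% to 60.9% in R+LE. With 2 libraries a group, leaving 1 out returns the share of the other, so these ranges do not measure stability. Over genes, the differences between replicates 1 and 2 correlated with r of -0.046 for -R and +R, 0.11 for -R and R+LE, and 0.25 for +R and R+LE. These values do not settle whether the numbers pair the samples. With the replicate number as a block, 5 members passed for +R against -R, 1 (Itpr3) for R+LE against +R and 5 for R+LE against -R. Of all 11595 genes, 5746, 1792 and 4488 passed in the same order.

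Reversed signs were confined to differences that passed in none of the settings. Atp2a2 for +R against -R was 0.017 with Rn45s left out of the depth, which put the median of all genes at 0.10. Atp2a2 for R+LE against -R was 0.022 under centring on the median, 0.065 under quantile normalization and 0.043 without Rn45s, and Itpr1 for R+LE against +R was 0.045, 0.044 and 0.0073 in the same order. With 1 library left out, Itpr1 ran from -0.11 to 0.20 and Atp2b1 from -0.24 to 0.25 for +R against -R. Itpr1 ran from -0.043 to 0.032, Trpv2 from -0.11 to 0.17 and Stim1 from -0.0035 to 0.29 for R+LE against +R, and Itpr1 from -0.12 to 0.19 and Atp2b1 from -0.068 to 0.42 for R+LE against -R. The cause of these changes was not tested. Camk4 rested on 49 to 69 reads in a library, the fewest of the members.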

Other observations

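Calcium-binding proteins of the ER lumen hold the stored ion, and mitochondria take up part of what is released. Of the 12 ER lumen genes 10 were tested, with 3 higher and 0 lower in +R than in -R by limma with Benjamini-Hochberg adjustment, where 45.4% of all genes passed, and 0 passed either way for R+LE against +R. The 3, named after their values were seen, were Hsp90b1, a chaperone, with a mean RPKM of 106.3 ± 28.8 (SD, n = 2) for -R, 197.7 ± 3.21 for +R and 174.7 ± 8.09 for R+LE, Calu with 33.0, 54.8 and 42.2 RPKM, and Canx with 99.1, 141.4 and 131.6 RPKM. Of the 9 gene symbols on the mitochondrial list 8 were in the table and 7 were tested, with 1 higher and 1 lower in R+LE than in +R. Mcub, a subunit that lowers the activity of the mitochondrial uniporter, was higher by 0.59 and Letm1 was lower by 0.61 on the log2 scale.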
